A study of Homo sapiens with 36 samples.

Results

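MYC, the long non-coding RNA gene PVT1 next to it, and 5 further genes of the MAX network (MAX, MXI1, MNT, MXD1 and MXD4) were examined for binding of tagged HIF-α proteins in 786-O cells. A peak was counted when its summit lay inside the GENCODE gene body of a member or within 50 kb on either side. Of 213711 peaks in 18 anti-V5 Cut&Run lists, 613 met this rule. Peaks that overlapped across lists were merged, and of 25783 regions called in at least 2 libraries, 58 belonged to the 7 genes. Another 35 of the peaks were called in 1 library only.

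786-O is a clear cell renal carcinoma line without working VHL, so that its own HIF-2α is stable in normal oxygen, and it has no functional HIF-1α. In Cut&Run an antibody brings a nuclease to a protein on chromatin, and the short fragments it releases are sequenced. The WT line carries no tag. In the HIF-2α KIN line, which is 1 clone, both copies of the endogenous gene carry V5 and Halo tags. The other 4 lines express a V5-Halo protein weakly from an L30 promoter integrated by PiggyBac transposition, in cells that keep their own untagged HIF-2α. These proteins are HIF-2α, HIF-1α and the chimeras HIF-2α/1α and HIF-1α/2α, named by the N-terminal part (DNA-binding and dimerization domains, called DBD here) and then by the C-terminal intrinsically disordered region (IDR). There were 3 replicates of each line, and every anti-V5 library was called against the IgG library of its own line and replicate.

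MYC is a basic helix-loop-helix leucine zipper factor that binds E-boxes (CACGTG) as a heterodimer with MAX. MXI1, MNT, MXD1 and MXD4 also dimerize with MAX, occupy the same kind of site and recruit SIN3 corepressors, so that they oppose MYC. HIF-1α and HIF-2α bind, with HIF-1β, the related hypoxia response element core (ACGTG or GCGTG), and in renal carcinoma HIF-2α is known to favour MYC activity whereas HIF-1α is known to oppose it, in part through MXI1. Which of these genes carry tagged HIF-α, and whether the DBD or the IDR goes with the strength of the site, is the question that the 6 lines address here.

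Sequences are shown for 6 regions on which the comparisons turn. They were read from hg38. In the first 3, capitals mark the response element core nearest the summit and the strand is the one on which the core reads. In the last 3 the plus strand is shown, no core lay within 50 bp of the summit on either strand, and the capital marks the summit base. A stretch of 29 bases is given where the window touches an annotated UTR and 61 bases elsewhere.
MXI1 intronic region, called in all 15 tagged libraries (chr10:110222069-110222129, minus strand): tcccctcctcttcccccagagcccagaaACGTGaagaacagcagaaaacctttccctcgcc
MXI1 internal promoter, with the largest rank difference by IDR among the 17 regions so tested (chr10:110226880-110226908, plus strand): ggaggggtgcgcGCGTGtgagggaggggt
MNT promoter (chr17:2399810-2399870, minus strand): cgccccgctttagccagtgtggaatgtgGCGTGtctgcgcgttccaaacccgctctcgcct
MNT downstream region in SGSM2, where the ranks of the DBD groups did not overlap (chr17:2359843-2359903): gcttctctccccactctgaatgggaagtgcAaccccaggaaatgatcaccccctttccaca
MNT downstream region in TSR1, called in all 15 tagged libraries (chr17:2335960-2336020): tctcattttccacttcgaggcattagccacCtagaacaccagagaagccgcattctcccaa
MXD4 promoter, where ranks differed by DBD (chr4:2262428-2262488): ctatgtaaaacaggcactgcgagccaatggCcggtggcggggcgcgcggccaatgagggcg

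Within 50 bp of the summit, on both strands, ACGTG or GCGTG was found in 8 of the 58 regions (13.8%), against 6213 of all 25783 regions (24.1%). For the 58 the summit was that of the best-ranked tagged peak, and for all regions that of the best-ranked peak of any list. The shares here are therefore not taken in quite the same way. The E-box CACGTG, which contains an ACGTG core, was found in none of the 58 and in 2.70% of all regions. An AP-1 site, TGACTCA or TGAGTCA, was found in 6 of the 58 (10.3%) and in 8.18% of all. Among the 35 regions of the 7 genes called in at least 8 tagged libraries, 6 held a core (17.1%). A match of letters is a description of the window and not a measured site.

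The 18 lists held 392 to 20808 peaks, and the shortest tagged list held 3984. The genome-wide background recovered from the fold and p-value columns was 0.241 to 0.625 fragments per base. WT replicate 1, 2 and 3 called 392, 9508 and 743 peaks, so that the untagged line has 1 long list and 2 short ones. Strength was taken as the rank of a peak within its list by −log10 q, where rank 1 is the strongest. A rank also depends on the length of the list, so the rank as percent of the list is given beside it where groups are compared. A library without a call at a region may still have protein there, below the calling threshold.

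Tagged libraries had anti-V5 peaks near every one of the 7 genes, but very unevenly. The tagged libraries had 320 peaks at PVT1, 91 at MNT, 81 at MXI1, 27 at MAX, 25 at MXD4, 22 at MXD1 and 12 at MYC, with 1 peak counted for both MYC and PVT1. The WT libraries had 28 at PVT1, 3 at MXI1, 2 at MAX and 1 each at MNT, MXD1 and MXD4. Per megabase of window and tagged library this was 51.8 peaks at MNT, 43.3 at PVT1, 30.0 at MXI1, 14.5 at MXD4, 10.1 at MXD1, 9.16 at MAX and 7.44 at MYC. These densities compare the 7 windows with each other and not with the genome. In merged regions, PVT1 had 32, MXI1 and MNT 8 each, MYC and MXD1 3 each, and MAX and MXD4 2 each.

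Calls in the 15 tagged libraries were tested against the 3 WT libraries with Fisher's exact test per region, two-sided, with Benjamini-Hochberg adjustment over all 25783 regions. Of the 58 regions, 4 passed, 2 at MXI1, 1 at MNT and 1 at PVT1, and the share over all regions was 4.66%. All 15 tagged lists and no WT list held each of the 4, which gives the smallest p this comparison allows (exact p = 0.00123, adjusted p = 0.0263). At an unadjusted p under 0.05 there were 15 of the 58, against 18.0% of all regions. The 4 calls rest on having 3 WT libraries. Without any one of WT replicates 1, 2 and 3, none passed. The smallest exact p was then 0.00735 and no region of the whole series passed, so that this does not single out the 4. Without HIF-2α KIN replicate 1, the shortest tagged list, 8 passed, and 1611 of all regions did, against 1201 with every library. With the replicate number as a block the adjusted exact p of all 4 was 0.0994, the smallest of any region.

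MYC itself carried the fewest calls of the 7 genes. Its gene body lies at chromosome 8, 127735434 to 127742951. The leading region (127735129 to 127736450) had its summit in a MYC coding exon, 106 bp from the nearest annotated MYC transcript start and 903 bp from the 5′ end of the gene. It was called in 6 of 15 tagged libraries and in no WT library. It ranked 5656 in HIF-2α KIN replicate 2, 10537.5 in HIF-2α/1α replicate 1, 14945.5 and 13968.5 in HIF-1α replicates 2 and 3, and 13497.5 and 9482.5 in HIF-1α/2α replicates 2 and 3. None of the 6 calls thus ranked nearer the top than 5656, the rank in HIF-2α KIN replicate 2, whose list held 13193 peaks. Among the exogenous lines, 4 calls were in lines with the HIF-1α DBD and 1 in a line with the HIF-2α DBD (exact Fisher p = 0.242). The HIF-2α KIN line also has the HIF-2α DBD, but its call was not part of that test. Against WT the calls did not pass the test (exact p = 0.515, adjusted p = 0.964). The remaining 2 regions of MYC, in a CASC11 intron at -1135 bp and in the MYC UTR, were each called in 2 tagged libraries, and 2 further peaks stood alone. No MYC region was called in 8 or more tagged libraries.

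PVT1, a non-coding neighbour of MYC that is often rearranged or amplified with it, had calls along most of its body (chromosome 8, 127794526 to 128187101). Each tagged library called 9 to 30 peaks in its window, with a median of 23. Of its 32 regions 6 were called in all 15 tagged libraries, against 6.67% of all regions of the series. In at least 8 tagged libraries, the limit for describing a region, 21 were called. The share of all regions at that limit is not given here, so that counts at it say nothing particular about these genes. All of the 8 leading regions were intronic, and they fell into a cluster 57.3 to 105.1 kb from the 5′ end and a pair at 356.6 and 382.3 kb. The nearest protein-coding transcript start to every one of the 32 was that of MYC.

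**Figure D1:**
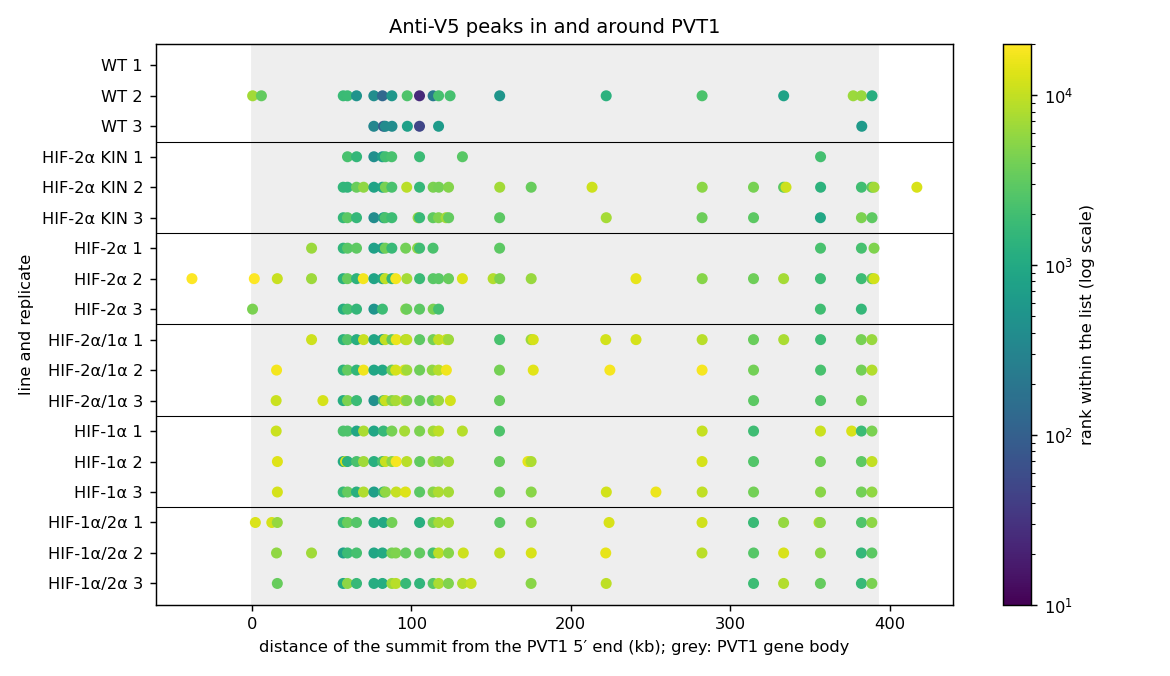
Peaks of the 18 anti-V5 lists in and around PVT1, one row per library, with the distance of the summit from the PVT1 5′ end in kb on the horizontal axis and the rank within the list as colour on a log scale. WT replicate 1 has no peak here, WT replicates 2 and 3 have 20 and 8, and the tagged libraries have 9 to 30, many of them between 57.3 and 123.4 kb.

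Many PVT1 regions were also called in untagged cells. Of the 35 regions of MYC and PVT1, 19 were called in at least 1 WT library (54.3%), all of them at PVT1, against 5 of 23 regions (21.7%) at the other 5 genes and 14.3% of all regions. In 2 WT libraries the counts were 7 of 35 (20%), 0 of 23 and 1.93%. WT replicate 1 called none of the 58 regions, WT replicate 2 called 23 and WT replicate 3 called 8. The share of the whole list that lay in the 7 windows was 0%, 0.294% and 1.08% in WT replicates 1, 2 and 3, and 0.197% to 0.438% in the tagged libraries, so that the WT values span the tagged ones. The mean share was 0.457% ± 0.556 for the WT line and 0.374% ± 0.0557 for HIF-2α KIN (SD, n = 3 each). Among exogenous proteins HIF-2α gave 0.361% ± 0.0950, the HIF-2α/1α chimera 0.258% ± 0.0537, HIF-1α 0.260% ± 0.0313 and the HIF-1α/2α chimera 0.296% ± 0.0421 (SD, n = 3 each).

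**Figure D2:**
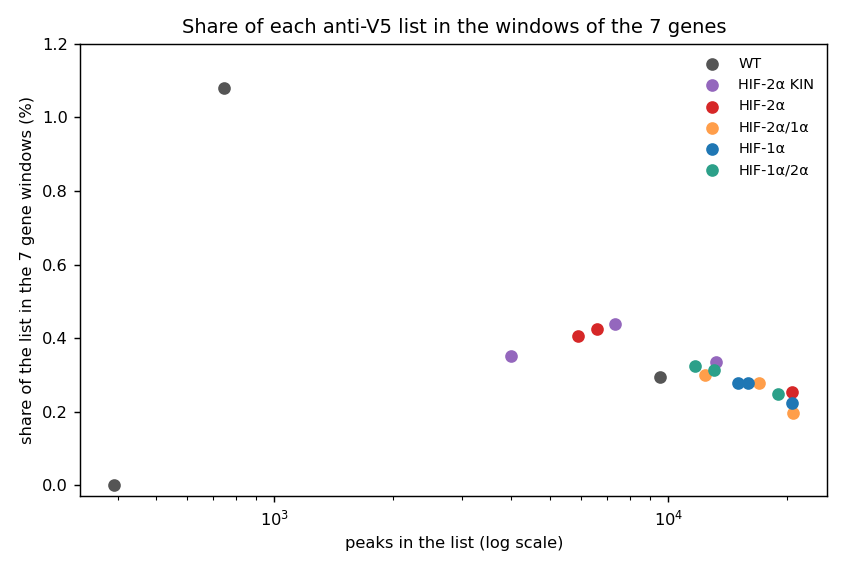
Share of each anti-V5 list that lies in the windows of the 7 genes, in percent, against the number of peaks in the list on a log scale, one point per library. WT replicate 3 stands highest at 1.08% of 743 peaks and WT replicate 1 lowest at 0%, while the 15 tagged libraries lie between 0.197% and 0.438% and long lists lie at the lower end.

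By rank, the untagged calls were strongest at the region 105.1 kb into PVT1 (127898306 to 127899960). There, WT replicate 2 had 104 fragments at the summit on a local background of 4.32, and WT replicate 3 had 37 on 2.41. The 15 tagged libraries had 26 to 160 fragments, with a median of 61, on backgrounds of 3.29 to 12.0. In rank this was 25 and 48.5 in the 2 WT lists and 1202 to 4465.5 in the tagged lists. At 81.8 kb (127875559 to 127877596) the WT ranks were 128 and 90.5 and the tagged ranks 716.5 to 2645.5, and at 76.5 kb (127870234 to 127871778) they were 400.5 and 332 against 390 to 1223. A call in the list of WT replicate 3 cannot rank beyond 743, so these ranks were also taken as percent of the list. At 105.1 kb they were 0.263% and 6.53% in WT replicates 2 and 3 and 8.36% to 49.5% in the tagged lists, at 81.8 kb 1.35% and 12.2% against 4.52% to 31.2%, and at 76.5 kb 4.21% and 44.7% against 3.61% to 11.5%. The groups thus overlapped at 76.5 and 81.8 kb and not at 105.1 kb. The source of the untagged calls, and its part in the number, density and rank of the tagged calls at PVT1, was not tested.

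Of the 32 PVT1 regions, 13 had no WT call, and 5 of these were called in at least 8 tagged libraries. At 356.6 kb (128150135 to 128151536) all 15 tagged libraries had a call and no WT library did (adjusted exact p = 0.0263). HIF-2α KIN ranked it 2064.5, 1323.5 and 923.5. Exogenous HIF-2α ranked it 2198.5, 1844 and 1935, and the HIF-2α/1α chimera 1843, 2158.5 and 2618. In the lines with the HIF-1α DBD it was 10905, 3822 and 5148 for HIF-1α and 5517.5, 5481 and 3359.5 for HIF-1α/2α. By rank the 6 libraries with the HIF-2α DBD did not overlap with the 6 with the HIF-1α DBD, but as percent of the list (8.93% to 33.4% against 18.6% to 72.4%) and in fold enrichment (8.28 to 24.2 against 4.77 to 18.9) they overlapped. The number of fragments at the summit was 18 to 152, on local backgrounds of 0.892 to 6.42.

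Ranks were compared by domain for the 2720 regions called in all 12 libraries of the 4 exogenous lines, 17 of which belong to the 7 genes. The test was an exact permutation test, two-sided, of the mean difference in log2 rank, with 400 relabellings among libraries that share the other domain, and the smallest p it can give is 0.005. By DBD, 2 of the 17 passed after adjustment over all 2720, against 10.7% of all regions, and these were PVT1 at 356.6 kb and the MXD4 promoter. By IDR, none of the 17 passed, against 12.7% of all regions. At an unadjusted permutation p under 0.05 there were 4 of the 17 by IDR, against 32.3% of all regions. By DBD there were 3 of the 17, against 29.1%. The median log2 difference, HIF-2α minus HIF-1α domain, was -0.176 by DBD over the 17 and -0.263 over all 2720, and 0.0188 and -0.103 by IDR. A negative value means a rank nearer the top with the HIF-2α domain.

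At PVT1 356.6 kb the geometric mean rank was 2083 for the HIF-2α DBD and 5285 for that of HIF-1α, a 2.54-fold difference (log2 -1.34, exact permutation p = 0.005, adjusted p = 0.0469). The call was lost with rank as percent of the list (adjusted permutation p = 0.421), rank by fold enrichment (0.193) and the replicate block (0.0884). By IDR the difference was 1.19-fold (log2 -0.25, exact permutation p = 0.415). The PVT1 regions with the lowest p by IDR were ones that WT libraries also called. At 382.3 kb the log2 difference was -0.87 (exact permutation p = 0.01, adjusted p = 0.0599), and at 105.1 and 113.6 kb it was -0.80 at each (exact permutation p = 0.015, adjusted p = 0.0732). With rank as percent of the list the exact permutation p was 0.5 at 382.3 kb and 0.995 at 105.1 kb, and at 113.6 kb the IDR groups overlapped on that scale (11.2% to 73.8% against 23.4% to 45.9%). At 382.3 kb the ranks were 1583 to 2441 with the HIF-2α IDR and 1767 to 4249 with the HIF-1α IDR, so that they overlapped, and WT replicates 2 and 3 ranked this region 6261 and 604.

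MXD4 encodes a MAX partner that represses MYC targets. The gene lies on the minus strand of chromosome 4, 2247432 to 2262109, and its leading region (2261647 to 2262974) had its summit at -349 bp from the start. It was called in 14 of 15 tagged libraries and in no WT library (exact Fisher p = 0.0049, adjusted p = 0.0657). The lines with the HIF-2α DBD ranked it 2790, 1569.5 and 1949.5 (HIF-2α) and 855, 1715 and 1482.5 (HIF-2α/1α). Those with the HIF-1α DBD ranked it 5405.5, 7934.5 and 6836 (HIF-1α) and 5035, 12680 and 3309 (HIF-1α/2α). HIF-2α KIN replicates 2 and 3 had it at 2354 and 4172, and KIN replicate 1 had no call.

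By rank, the 2 DBD groups did not overlap at the MXD4 promoter, whereas as percent of the list they did (5.04% to 42.3% with the HIF-2α DBD against 28.3% to 66.7%). The geometric mean rank was 1627 where the DBD was that of HIF-2α and 6290 where it was that of HIF-1α, a 3.87-fold difference (log2 -1.95, exact permutation p = 0.005, adjusted p = 0.0469). By IDR it was 3489 against 2934 (log2 0.25, exact permutation p = 0.505). Fold enrichment was 5.21 to 41.5 for the HIF-2α DBD and 3.16 to 9.28 for that of HIF-1α, so that on this scale too the groups overlapped. The MXD4 call was lost with rank as percent of the list (adjusted permutation p = 0.256), rank by fold enrichment (0.193) and the replicate block (0.0884). Leaving out any 1 of the 12 libraries gave adjusted permutation p of 0.0528 to 0.0910 at MXD4 and 0.0528 to 0.0917 at PVT1, while the log2 differences stayed at -2.14 to -1.75 and -1.47 to -1.13. The second MXD4 region, 19.9 kb downstream and 20 bp from the annotated start of another protein-coding gene, was called in 10 of 15 tagged libraries.

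**Figure D3:**
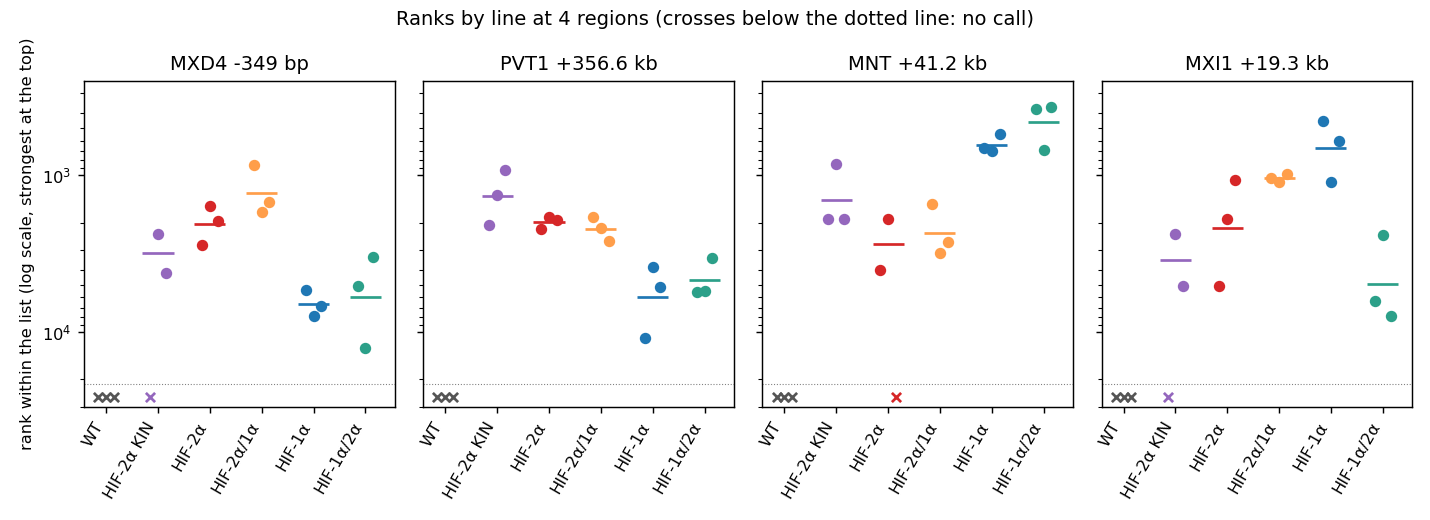
Rank within the list, on a log axis with the strongest at the top, in the 3 replicates of each line at 4 regions, with a bar at the geometric mean of the called replicates and crosses for libraries without a call. At MXD4 and at PVT1 356.6 kb the 6 libraries with the HIF-2α DBD (HIF-2α and HIF-2α/1α) lie above the 6 with the HIF-1α DBD, at MNT 41.2 kb the order is the opposite, and at MXI1 19.3 kb HIF-1α and HIF-2α/1α lie highest. List lengths differ, and as percent of the list the DBD groups overlap at MXD4 and at PVT1.

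MXI1, the MAX partner that HIF-1α is known to induce, had the largest number of regions past the WT comparison. The gene spans chromosome 10, 110207605 to 110287365. The region 2.6 kb from its 5′ end (110207440 to 110211623) had its summit 2 bp from an MXI1 transcript start. HIF-2α KIN ranked it 1399, 9528 and 2822, exogenous HIF-2α 763, 1497 and 1085, and the HIF-2α/1α chimera 1711, 1697.5 and 1270.5. Exogenous HIF-1α ranked it 850, 1636 and 2912.5, and the HIF-1α/2α chimera 1649, 2256.5 and 3504.5. By rank, exogenous HIF-2α and the HIF-1α/2α chimera did not overlap, but as percent of the list they did (7.25% to 18.4% against 11.9% to 30.0%). The 6 libraries of either DBD overlapped in rank with those of the other. Neither the DBD (log2 -0.59, exact permutation p = 0.14) nor the IDR (log2 0.02, exact permutation p = 0.945) passed.

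The intronic MXI1 region at 14.5 kb (110221578 to 110222567), at -3861 bp from the nearest MXI1 start, holds the ACGTG core printed above. It had the narrowest range of ranks, as a ratio, of the 22 regions described. The tagged ranks ran from 1142 to 3150.5 with a median of 2519, and the exact permutation p was 0.21 by DBD and 0.8 by IDR. It had 11 to 180 fragments at the summit, with a median of 40, on a median local background of 1.59. The adjusted exact p against WT was 0.0263 at both 2.6 and 14.5 kb.

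At 19.3 kb (110225313 to 110227628), 28 bp from another MXI1 transcript start and with 3 response element cores within 50 bp of the summit, the spread by IDR was the widest of the 17 regions. They were 448, 1104 and 602 in HIF-1α and 1039.5, 1094 and 983 in HIF-2α/1α, the lines with the HIF-1α IDR. They were 5056.5, 1903.5 and 1070.5 in HIF-2α and 6330, 2404 and 7827 in HIF-1α/2α, the lines with the HIF-2α IDR. HIF-2α KIN had no call in replicate 1 and ranks of 2361.5 and 5083 in the others. The 2 IDR groups met only at their edges, since the strongest library with the HIF-2α IDR (1070.5) lay between 2 of the HIF-1α IDR group (1039.5 and 1094, with 1104 the weakest).

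The geometric mean rank at MXI1 19.3 kb was 832 with the HIF-1α IDR and 3272 with the HIF-2α IDR, a 3.93-fold difference (log2 1.97, exact permutation p = 0.01). As percent of the list the groups did not overlap, at 2.98% to 7.95% and 9.22% to 76.7% (exact permutation p = 0.005, adjusted p = 0.081). After adjustment over all 2720 regions it missed the threshold (adjusted p = 0.0599), and leaving out single libraries gave log2 differences of 1.72 to 2.3 with adjusted permutation p of 0.0618 to 0.0813. By DBD the difference was 1.21-fold (log2 -0.27, exact permutation p = 0.645). The region was called in 14 of 15 tagged libraries and never in WT (exact Fisher p = 0.0049, adjusted p = 0.0657). The other leading region, at 97.0 kb, lay 84 bp from the start of SMNDC1, a splicing factor gene, and had ranks of 2092 to 5649 for the HIF-2α DBD and 4319.5 to 7704 for that of HIF-1α (log2 -0.96, exact permutation p = 0.015, adjusted p = 0.0819), with an exact permutation p of 0.26 as percent of the list.

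MNT, a broadly expressed MAX partner and the chief standing antagonist of MYC, had 8 regions, 5 of which were called in at least 8 tagged libraries. It lies on the minus strand of chromosome 17, 2384073 to 2401104. Its 3 leading regions within the gene, all in introns and at 1.2, 4.1 and 8.1 kb from the 5′ end, lay at 570, -195 and -255 bp from MNT transcript starts and were called in 13, 12 and 14 tagged libraries and in no WT library. Their tagged ranks were 1472.5 to 9723, 2723.5 to 11262.5 and 1913 to 7038, with medians of 4037, 5581 and 4338.75. At 1.2 and 8.1 kb, the 2 called in all 12 exogenous libraries, no domain difference passed (exact permutation p of 0.26 to 0.7).

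The leading MNT region by number of calls was 65.1 kb downstream, in an intron of TSR1, a ribosome maturation gene, 453 bp from its start (2335384 to 2337084). All 15 tagged libraries and no WT library had it (adjusted exact p = 0.0263). It ranked 1397, 2855.5 and 3314 in HIF-2α KIN and 3084.5 to 10105 in the exogenous lines. With 8 to 58 fragments at the summit and a median of 18, it rests on fewer fragments by median than the other 3 regions that passed.

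The region at 41.2 kb (2359268 to 2360606), in an intron of SGSM2 and at -1904 bp from its nearest transcript start, was the strongest of the MNT window in 12 of the 15 tagged lists. It ranked 671, 701 and 548 in HIF-1α and 375, 690.5 and 366 in HIF-1α/2α. In the lines with the HIF-2α DBD it ranked 4024.5 and 1884.5 in HIF-2α, with no call in replicate 3, and 1518, 3113 and 2649.5 in HIF-2α/1α. HIF-2α KIN ranked it 1892.5, 841.5 and 1887. Every library with the HIF-1α DBD thus ranked it nearer the top than any exogenous library with the HIF-2α DBD, also as percent of the list (2.87% to 4.46% against 8.94% to 61.1% in the 5 with a call). In fold enrichment the groups overlapped (15.7 to 39.7 against 7.45 to 27.5).

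Because of the missing call, the region at 41.2 kb was outside the rank comparison. With missing calls placed after the end of their list, an alternative added after the data were seen, the log2 difference by DBD was 2.41, 5.33-fold nearer the top with the HIF-1α DBD (exact permutation p = 0.005, adjusted p = 0.077), and by IDR it was 0.07 (exact permutation p = 0.855). In that setting none of the 11830 regions tested in all passed. Fragments at its summit were 70 to 173 in the 6 libraries with the HIF-1α DBD and 10 to 151 in the 5 called with the HIF-2α DBD.

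MAX, the obligate partner of all these factors, had its leading region at its promoter. The gene lies on the minus strand of chromosome 14, 65006174 to 65102695, and the region (65102243 to 65103144) had its summit 30 bp from the 5′ end. It was called in 13 of 15 tagged libraries and in WT replicate 2 (exact Fisher p = 0.108, adjusted p = 0.467). The tagged ranks were 1640.5 to 13065.5 with a median of 4089, and WT replicate 2 ranked it 6730.5 with 8 fragments at the summit against 15 to 96 in the tagged libraries. In the exogenous lines the ranks were 3271 to 4240 in the 5 called libraries with the HIF-2α DBD and 4074 to 13065.5 in the 6 with the HIF-1α DBD. As percent of the list the groups overlapped widely (15.7% to 71.8% against 25.7% to 86.8%). HIF-2α KIN replicates 2 and 3 ranked the region 7891 and 1640.5. The second MAX region, at 115.5 kb, lay at -13 bp from the start of FNTB, which encodes a farnesyltransferase subunit, and was called in 12 tagged libraries (exact Fisher p = 0.0245, adjusted p = 0.166).

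MXD1, a MAX partner linked with differentiation, had 1 region called in at least 8 tagged libraries. The gene spans chromosome 2, 69897688 to 69942945, and the region (69914328 to 69915227) lay in its body, at -108 bp from an annotated start and 17.2 kb from the 5′ end. It was called in 11 tagged libraries and in WT replicate 2 (exact Fisher p = 0.245, adjusted p = 0.639). In the exogenous lines the calls comprised all 6 libraries with the HIF-1α DBD, at ranks of 1880 to 7602, and 4 of 6 with the HIF-2α DBD, at 6087.5 to 11075. As percent of the list these groups overlapped too (14.4% to 65.1% against 35.9% to 83.8%). HIF-2α KIN replicate 2 ranked the region 7477. WT replicate 2 ranked it 5165.5, within the tagged range.

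**Figure D4:**
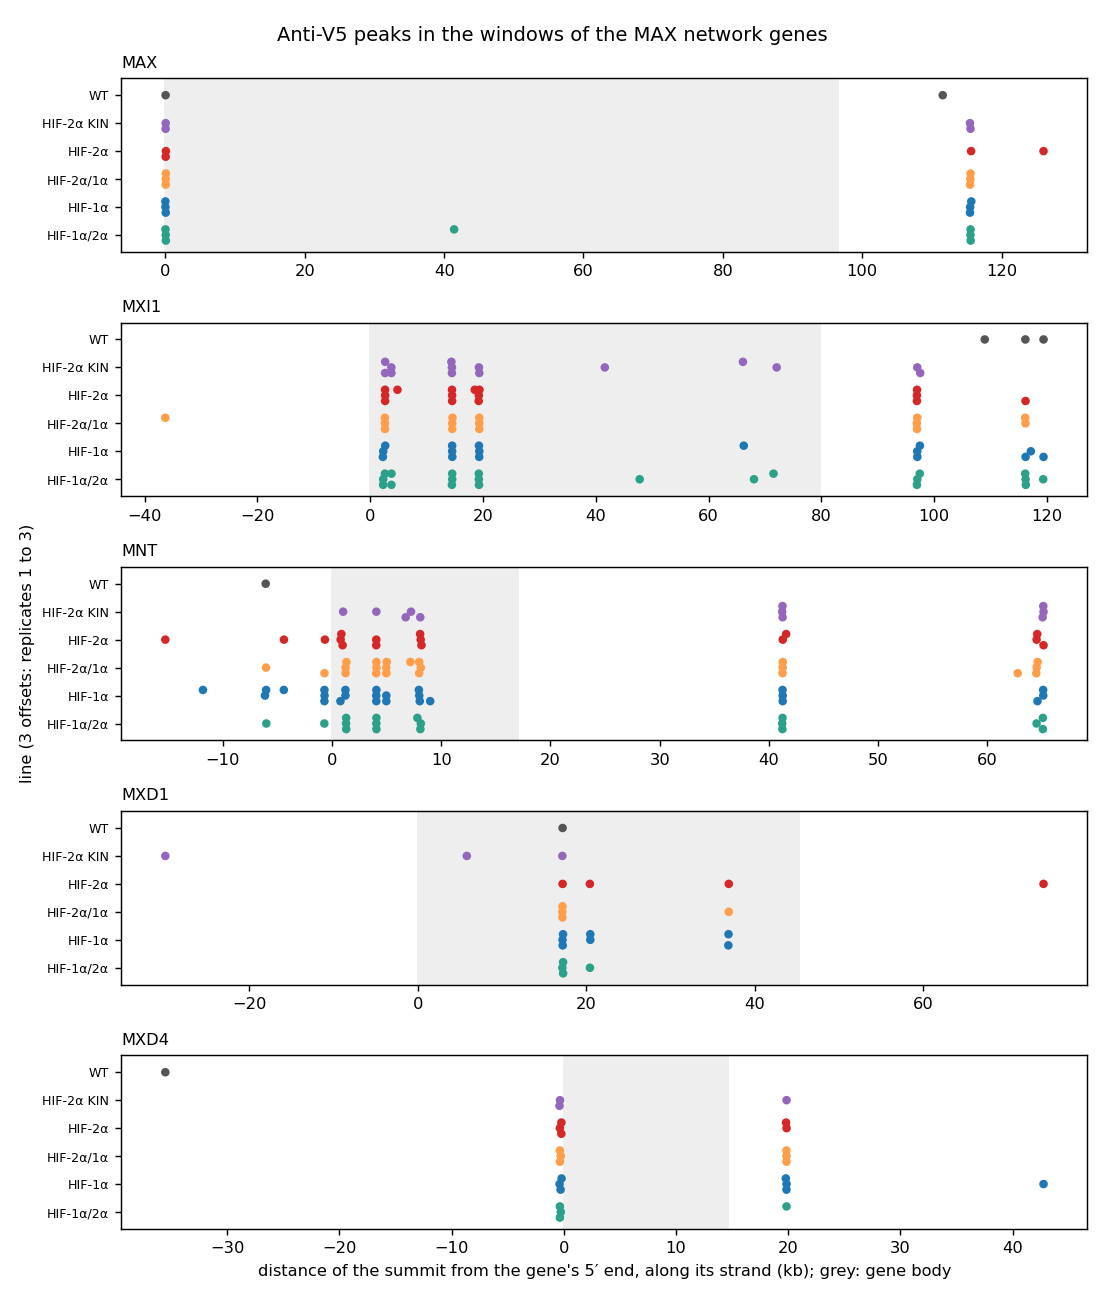
Peaks in the windows of MAX, MXI1, MNT, MXD1 and MXD4 by distance of the summit from the 5′ end along the gene's strand, in kb, with 1 row per line, its 3 replicates offset, and the gene body in grey. Repeated columns of points stand at the 5′ ends of MAX and MXD4, at 115.5 kb of MAX, at 2.6, 14.5, 19.3 and 97.0 kb of MXI1, at 1.2, 4.1, 8.1, 41.2 and 65.1 kb of MNT, at 17.2 kb of MXD1 and at 19.9 kb of MXD4, and WT has few points.

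No difference in whether a region was called passed the test for either domain. Over 25285 regions not called in 2 or more WT libraries, 51 of them at the 7 genes, Fisher's exact test passed after adjustment at none of the 51 by IDR, by DBD, or between the 12 exogenous and the 3 KIN libraries, and the share over all regions was 0% in each. At an unadjusted exact p under 0.05 there were 1 of the 51 and 357 of all regions by IDR, 0 and 142 by DBD, and 2 and 1626 for exogenous against KIN. The 1 region by IDR was in an MNT intron at 5.0 kb (2395896 to 2396334), called in 5 of 6 libraries with the HIF-1α IDR and in 0 of 6 with the HIF-2α IDR (exact Fisher p = 0.0152, adjusted p = 1). The 2 regions against KIN were PVT1 at 15.9 kb (9 of 12 exogenous and 0 of 3 KIN, exact Fisher p = 0.044) and MNT at 1.2 kb (12 of 12 and 1 of 3, exact Fisher p = 0.0286).

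**Figure D5:**
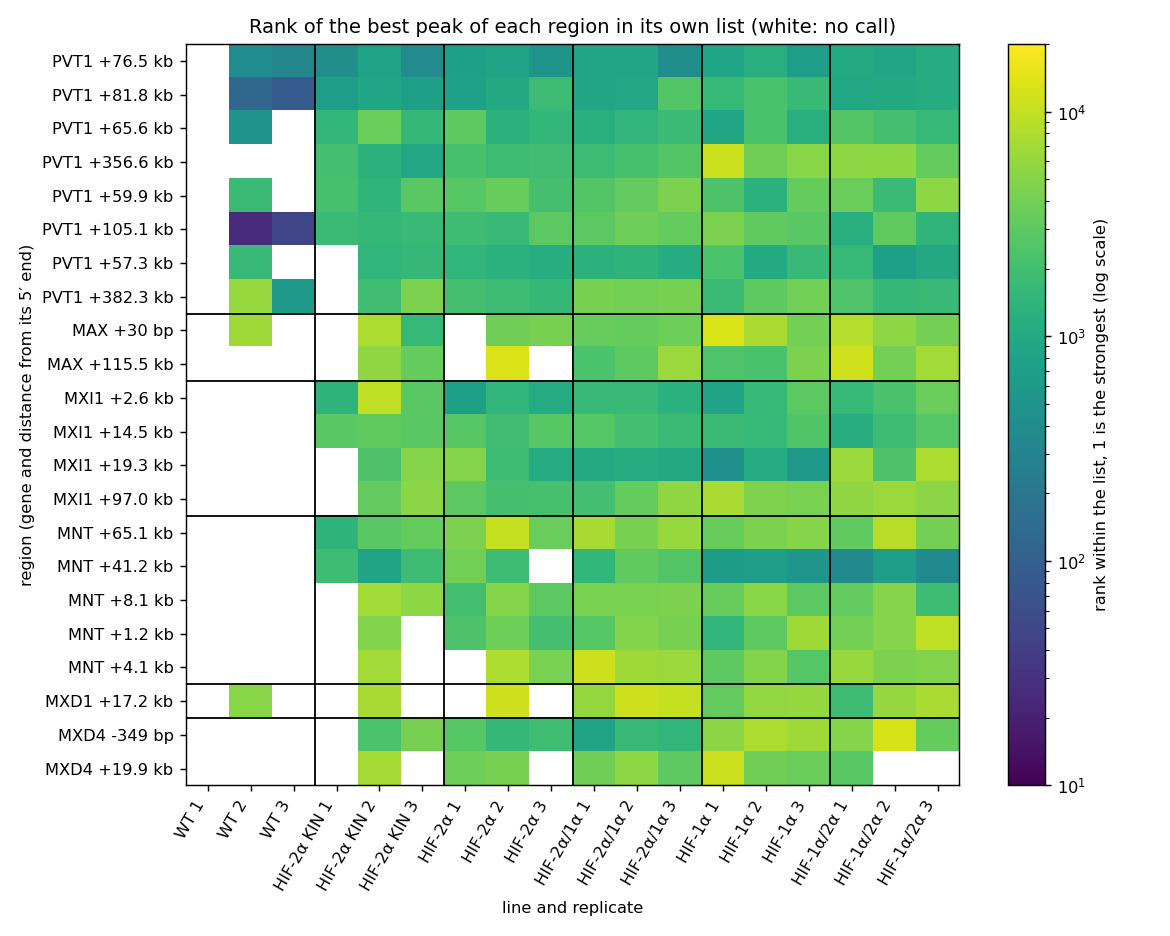
Rank of the best peak of each of the 22 regions described (rows, named by gene and distance from its 5′ end) in each of the 18 lists (columns), as colour on a log scale, with white for no call. WT calls lie in PVT1 rows apart from 1 in MAX and 1 in MXD1, and HIF-2α KIN replicate 1, the shortest tagged list with 3984 peaks, has the most white cells among the tagged libraries.

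Other genes of the MYC network were counted in the same way. Of 26 further genes, 3 had at least 1 region past the comparison with WT within 50 kb (11.5%), against 10.8% of 20033 protein-coding genes. They were MLXIP, which encodes a MLX partner, with 2 regions, ZBTB17, which encodes the MYC cofactor MIZ1, with 1, and SIN3A, the corepressor of the MXD proteins, with 1. None of the 7 genes of MYC protein stability, such as FBXW7, had one. Of the 7 members themselves 3 had one, MXI1 with 2 and PVT1 and MNT with 1 each, and 1.41% of protein-coding genes had as many as MXI1.

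For PVT1 and MXI1, whose leading regions were called in all 15 tagged lists, the promoters with the most similar rank profile were found by Pearson correlation of log2 rank over the 15 lists, as a description. For the leading PVT1 region at 76.5 kb, which 2 WT libraries also called, they were NAB2 (r = 0.75), CFLAR (0.74) and PRCD (0.70) among 519 promoter regions, whose median r was 0.0966. For MXI1 at 2.6 kb they were PDXK and ZNF398 (0.77 each) and TRAF7 (0.71) among 518, whose median r was 0.0444. The 15 lists share lines and differ in length, and both enter these values.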

How the data were processed

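Anti-V5 Cut&Run peak lists of 18 libraries were used (6 lines, 3 replicates), with IgG libraries entering only through the calls. The authors aligned reads to hg38 with Bowtie2 (version 2.3.4.1), called peaks in each library separately with MACS2 (q-value of 0.01) and took out blacklisted regions using bedtools (version 2.28.0). The deposited lists give the fold enrichment ratio over local background and the −log10 of p- and q-values at the summit. Fragment numbers under a summit follow from both deposited columns, fold and −log10 p, and 100% of the peaks with a −log10 p under 100 matched within 0.01, HIF-2α/1α replicate 2 after its pileup was scaled by 0.9493. Peaks overlapping by 1 bp were merged, and regions in at least 2 libraries were kept. Calls were compared with Fisher's exact test and log2 ranks with an exact permutation test stratified by the other domain, each adjusted by Benjamini-Hochberg over all regions tested (Python 3.11.15, SciPy 1.17.1). Tests were checked on simulated data. Annotation was GENCODE 44. Regions called in at least 8 tagged lists were described, at most 8 per gene, and lower ones by count or, where few, by name after their values were seen. The 7 genes and all lists were chosen with earlier results of these data known. Alternatives were thresholds, list length, windows, merging, rank scales, a replicate block and leaving out each library. The most similar promoters were listed for PVT1 and MXI1, and those for MNT are not reported here.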

Additional observations from a re-analysis of the deposited data

How the results depend on the processing

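Of the 7 results, the counts of 0 by IDR, by DBD and against KIN in calls stayed 0 under every alternative run. In the main setting none of all 25285 regions passed any of these tests, so that a 0 does not set the 7 genes apart. The 4 regions called more often in tagged than in WT libraries became 2 with −log10 q of at least 5 and 2 with lists cut to equal length. They became 0 with the replicate block, whose smallest adjusted p was 0.0994. Leaving out 1 library gave 0 (without any 1 WT library) to 8 (without HIF-2α KIN replicate 1). With the block, and without any 1 WT library, no region of the whole series passed against WT. The 2 regions whose rank differed by DBD became 0 with the replicate block, rank by fold enrichment or rank as percent of the list. They also became 0 with missing calls ranked after the end of their list (added after the data were seen). On leaving out any 1 exogenous library the count was 0, for a range of 0 to 0. With lists of equal length the count was 0 because neither region entered the rank test. After the cut, neither was called in every exogenous list, so that setting cannot show whether their difference holds. In it, 154 regions of the whole series passed by DBD. The count of ranks that differed by IDR was 0 in every setting run but one, for a range of 0 to 1 on leaving out 1 library. In that one, PVT1 at 105.1 kb passed without HIF-1α/2α replicate 2 (adjusted permutation p = 0.049). No region of the whole series passed by IDR with the replicate block, the other rank scales or the ranking of missing calls. The same held without any 1 library of exogenous HIF-2α or HIF-1α, so that those settings could not give another count. In each of the settings with 0 by DBD other than equal length, no region of the whole series passed by DBD. The mean share of a list in the windows, tagged minus WT, was -0.147 percentage points and ranged from -0.376 to 0.162 on leaving out 1 library. It reversed to 0.162 without WT replicate 3 and to 0.310 without WT replicates 2 and 3 (added after the data were seen). The labels do not say that a replicate number marks a shared batch, though the library numbers in them run in consecutive sets by replicate number. Deviations from the line mean were correlated between libraries over 1720 regions called in all 15 tagged lists. Same-numbered libraries gave r of 0.04 to 0.27 (median 0.10, over 0.1 in 15 of 30 pairs). Differently numbered ones gave -0.17 to 0.04 (median -0.06). Of the 15 tagged libraries, 15 correlated best with one of their own number. Same-numbered libraries thus tended to deviate together, though weakly. With the block, neither the 4 calls against WT nor the 2 by DBD passed, and both rest on leaving the replicate number out. The block changed no other call. Lists of 392 and 743 WT peaks limit what a missing WT call can show, and 3 libraries per line cannot give an exact p below 0.1 between 2 lines.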
